A study of Mus musculus with 16 samples.

Results

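Serum response factor (SRF) is a transcription factor that controls early response genes and genes of the actin cytoskeleton, and the data on Srf and 9 of its known or presumed targets are described here. The genes were chosen by name: Srf, the actins Actb and Actg1, the tropomyosins Tpm1 and Tpm4, the adhesion proteins Vcl (vinculin) and Zyx (zyxin), the actin crosslinker Flna, and Ccn1 and Ccn2, secreted proteins of the extracellular matrix formerly called Cyr61 and Ctgf. Of the 10 genes, 9 had a probe set annotated with their symbol alone, out of 13180 genes with such a probe set on the array. Flna was covered only by a probe set annotated with several genes, and no value is given for it.

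RNA from 1 hippocampus of each of 16 mice was hybridized to 1 Affymetrix exon array each, and all mice were wildtype C57BL/6 males aged 3 months. Of these, 3 mice received SL327 (50 mg/kg), which blocks the ERK kinase MEK, 1 h before kainic acid (20 mg/kg), a glutamate receptor agonist that triggers seizures, and 3 mice received kainic acid (20 mg/kg) without the inhibitor, both groups being sacrificed 1 h after seizure onset. A further 3 mice received SL327 alone (50 mg/kg) and 3 received vehicle, with 1 h given as the time for both, while 4 mice were untreated. For SL327 alone the study's description of tissue sections gives a longer time than the array labels, and which time holds for these 3 mice is not known. Vehicle is given as PBS in the sample labels but as DMSO with PBS in the methods, and which of them these mice received is not known.

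The values are log2 intensities of probe sets that each cover a transcript, and each probe set can be compared between mice but not with another probe set. Of 20372 probe sets, 15417 had a gene annotation and were tested with limma in a single fit of the 5 groups. Arrays of a group correlated with each other at r between 0.961 and 0.987 across probe sets. Replicates were separate mice, and their number limits the precision. Of 6 markers of hippocampal neurons, 5 lay above the array's median on all 16 arrays and Neurod6 on 0. The tissue was measured in bulk, so that fewer cells of a type and less RNA per cell cannot be told apart.

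SRF binds to a DNA element called the CArG box and acts with either of 2 families of cofactors. The ternary complex factors (Elk1, Elk3, Elk4) are phosphorylated by ERK, whereas the myocardin related factors (Mrtfa, Mrtfb) are held in the cytoplasm by monomeric actin and are released when actin polymerizes. In neurons SRF is known for its role in activity dependent transcription, in neurite outgrowth and in the organisation of the actin cytoskeleton. Ccn1 and Ccn2 are in addition targets of the coactivators YAP and TAZ, which bind DNA through TEAD factors.

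Promoter windows from RefSeq (assembly GRCm38.p6), from 250 bases before to 50 bases after the annotated start of a transcript, were found for 8 of the 10 genes. They were searched on both strands for the CArG box and for the TEAD motif GGAATG. The 5 windows printed here hold the matches in genes with values below, with a CArG box in capitals for Srf, Vcl and Actg1, a TEAD motif (GGAATG, or CATTCC where it lies on the other strand) in capitals for Tpm1 and Ccn1, and both in capitals for Vcl.
Srf, chr17:46556113-46556412, minus strand: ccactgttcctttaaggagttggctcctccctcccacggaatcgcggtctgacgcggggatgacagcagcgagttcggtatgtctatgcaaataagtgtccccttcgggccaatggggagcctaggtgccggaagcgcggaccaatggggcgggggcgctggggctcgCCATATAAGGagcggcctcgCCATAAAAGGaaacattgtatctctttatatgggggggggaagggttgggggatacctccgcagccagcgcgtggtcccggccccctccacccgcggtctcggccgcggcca
Vcl, chr14:20929148-20929447, plus strand: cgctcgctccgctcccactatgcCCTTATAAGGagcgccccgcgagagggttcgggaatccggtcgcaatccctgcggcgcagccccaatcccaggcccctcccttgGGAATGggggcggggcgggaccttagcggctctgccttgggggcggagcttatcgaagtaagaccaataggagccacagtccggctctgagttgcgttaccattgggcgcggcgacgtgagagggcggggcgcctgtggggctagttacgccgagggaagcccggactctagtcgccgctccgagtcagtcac
Actg1, chr11:120348446-120348745, minus strand: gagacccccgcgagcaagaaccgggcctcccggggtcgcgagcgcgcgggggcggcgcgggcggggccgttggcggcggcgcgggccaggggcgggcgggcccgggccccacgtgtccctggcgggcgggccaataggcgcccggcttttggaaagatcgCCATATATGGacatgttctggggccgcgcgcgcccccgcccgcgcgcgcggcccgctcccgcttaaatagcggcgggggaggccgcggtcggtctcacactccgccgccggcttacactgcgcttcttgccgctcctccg
Tpm1, chr9:67049164-67049463, minus strand: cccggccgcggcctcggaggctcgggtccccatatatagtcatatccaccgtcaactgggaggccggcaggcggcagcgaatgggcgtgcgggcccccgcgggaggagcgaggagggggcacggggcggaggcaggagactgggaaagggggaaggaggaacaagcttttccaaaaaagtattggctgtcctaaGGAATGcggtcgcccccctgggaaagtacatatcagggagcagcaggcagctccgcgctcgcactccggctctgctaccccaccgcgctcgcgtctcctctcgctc
Ccn1, chr3:145649936-145650235, minus strand: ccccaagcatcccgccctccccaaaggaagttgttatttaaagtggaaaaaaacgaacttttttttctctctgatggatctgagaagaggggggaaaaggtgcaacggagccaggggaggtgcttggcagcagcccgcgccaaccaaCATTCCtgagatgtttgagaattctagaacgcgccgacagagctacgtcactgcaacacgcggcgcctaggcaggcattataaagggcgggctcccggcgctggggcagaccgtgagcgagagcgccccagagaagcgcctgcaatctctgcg

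The Srf window held 2 CArG boxes, which began 82 and 62 bases before the start. The Vcl window held 1 at 227 bases and the Actg1 window 1 at 90 bases before the start. Thus 3 of 8 windows had a CArG box, against 535 of 32851 mouse windows of this length (1.63%). The genes were chosen as known or presumed SRF targets, so this share is a description and no evidence of control by SRF. The TEAD motif lay in 4 of 8 windows (Tpm1, Vcl, Ccn1 and Flna), against 4817 of all windows (14.7%). No CArG box overlapped a TEAD motif. The Zyx and Tpm4 windows held neither sequence, which says only that these letters are not in the windows.

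**Figure D1:**
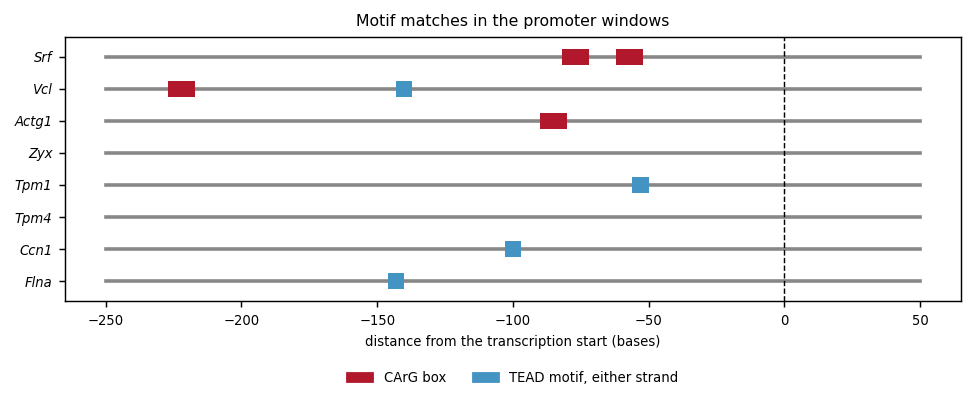
Matches to the CArG box (red) and the TEAD motif (blue) in the promoter windows of 8 genes, with the distance from the annotated transcription start in bases on the x axis and the start as a dashed line. Srf has 2 CArG boxes within 82 bases of the start, Vcl has 1 CArG box and 1 TEAD motif, and the Zyx and Tpm4 windows have no match.

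To ask how seizures change these genes, kainic acid treated mice were compared with vehicle treated mice. All 9 measured genes were higher 1 h after seizure onset, by between 0.37 (Tpm4) and 1.84 (Ccn1) on the log2 scale, and each passed limma's adjusted p of 0.05. Over all annotated probe sets 4.92% were called higher in this comparison. The median difference of the 9 genes was 0.73, against -0.03 over all 15417 probe sets. For each of the 9 genes every kainic acid array lay above every vehicle array, which was so for 11.5% of all annotated probe sets.

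Inhibition of MEK was examined by comparing mice given SL327 with kainic acid with mice given kainic acid. The level was lower with the inhibitor for all 9 genes, and 6 passed the adjusted threshold (Srf, Vcl, Tpm1, Tpm4, Zyx and Ccn1), against 4.09% of all probe sets called lower. By the criterion the methods use for inhibitor sensitivity, a lower level at an unadjusted p of 0.05, 8 of the 9 were sensitive, all but Actg1, against 7.61% of all probe sets. The methods apply this criterion only among genes that differ between kainic acid and vehicle, as all 9 did. The share among such genes was not computed here, and the paper classed most of its strongly induced genes as inhibitor sensitive. The number of sensitive genes among the 9 was 6 in a fit of only the groups compared. It was also 6 when kainic acid replicate 2 or 3, or replicate 2 of the mice given both, was left out, and it was 9 when replicate 1 of either group was left out. The median difference of the 9 genes was -0.44, against 0.04 over all probe sets. Arrays did not overlap for 5 genes (Srf, Vcl, Tpm1, Tpm4 and Zyx), against 8.95% of all probe sets. Kainic acid arrays are shared between this comparison and that with vehicle, so that their values enter both differences.

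**Figure D2:**
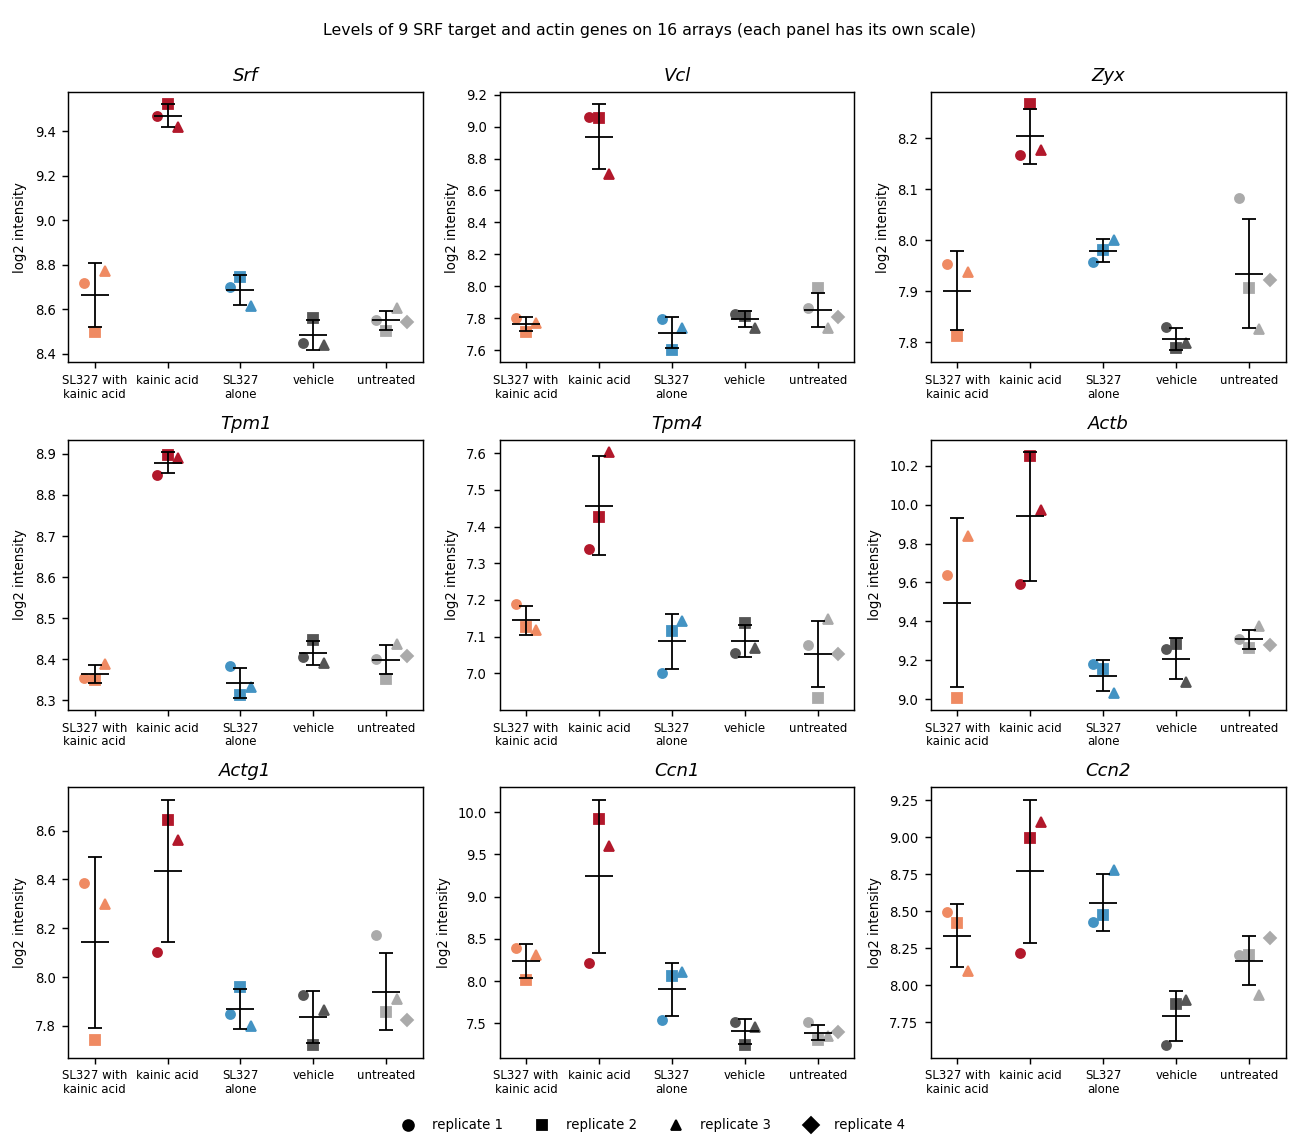
Log2 intensity of the 9 genes on each of 16 arrays, by group (SL327 with kainic acid, kainic acid, SL327 alone, vehicle, untreated), with symbols for the replicate number, a line for the mean and bars for the SD. For every gene the 3 kainic acid arrays lie above the 3 vehicle arrays, and for Srf, Vcl, Tpm1, Tpm4 and Zyx they also lie above the 3 arrays of SL327 with kainic acid.

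Srf (probe set 6855706) was at 8.72, 8.50 and 8.77 in mice given SL327 with kainic acid, against 9.47, 9.52 and 9.42 in mice given kainic acid. It was at 8.70, 8.74 and 8.61 with SL327 alone, against 8.45, 8.56 and 8.44 in vehicle treated and 8.55, 8.50, 8.61 and 8.55 in untreated mice. The kainic acid arrays stood apart from all 13 others, and those of SL327 alone lay above those of vehicle by a narrow margin. The rise with kainic acid over vehicle was 0.98 (SE 0.0657, limma adjusted p = 6.38e-07), a ratio of 1.98 on the intensity scale. With the inhibitor Srf fell by 0.81 relative to kainic acid (SE 0.0657, limma adjusted p = 5.48e-06). What was left over vehicle was 0.18 (95% interval 0.04 to 0.32, limma adjusted p = 0.295). SL327 alone differed from vehicle by 0.20 (95% interval 0.06 to 0.34, limma unadjusted p = 0.00839, adjusted p = 0.118).

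Vcl codes for vinculin, which links actin filaments to sites of cell adhesion. Its level (probe set 6817393) was 7.80, 7.71 and 7.77 with SL327 before kainic acid, against 9.06, 9.05 and 8.70 with kainic acid. It was 7.79, 7.60 and 7.74 with SL327 alone, against 7.83, 7.82 and 7.74 with vehicle and 7.87, 7.99, 7.74 and 7.81 in untreated mice. The 3 kainic acid arrays were again above all others, replicate 3 being the lowest of them. Vcl rose by 1.14 with kainic acid over vehicle (SE 0.0887, limma adjusted p = 2.01e-06), and fell by 1.17 with the inhibitor relative to kainic acid (SE 0.0887, limma adjusted p = 2.68e-06). Mice given both treatments differed from vehicle treated mice by -0.03 (95% interval -0.22 to 0.16), and mice given SL327 alone by -0.08 (95% interval -0.27 to 0.11).

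Zyx codes for zyxin, which binds actin regulators at focal adhesions. Probe set 6945786 was at 7.95, 7.81 and 7.94 with SL327 before kainic acid, against 8.17, 8.27 and 8.18 with kainic acid. With SL327 alone it was at 7.96, 7.98 and 8.00, against 7.83, 7.79 and 7.80 with vehicle and 8.08, 7.91, 7.83 and 7.92 in untreated mice. Kainic acid arrays were the highest, arrays of SL327 alone lay above all vehicle arrays, and the untreated mice covered a wider range that included 1 mouse above those given SL327 alone. The rise with kainic acid over vehicle was 0.40 (SE 0.0598, limma adjusted p = 0.000711) and the difference of SL327 with kainic acid from kainic acid was -0.30 (SE 0.0598, limma adjusted p = 0.00577). SL327 alone was 0.17 above vehicle, which did not pass (limma unadjusted p = 0.0117, adjusted p = 0.14).

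Tropomyosins lie along actin filaments and govern access of other proteins to them. Tpm1 (probe set 6996448) was at 8.35, 8.35 and 8.39 with SL327 before kainic acid, against 8.85, 8.90 and 8.89 with kainic acid. It was at 8.38, 8.31 and 8.33 with SL327 alone, against 8.41, 8.45 and 8.39 with vehicle and 8.40, 8.35, 8.44 and 8.41 in untreated mice. The levels were tight within each group: the residual SD of Tpm1 was 0.031 and lay at percentile 0.551 of all annotated probe sets. Tpm1 rose by 0.46 with kainic acid over vehicle (SE 0.0385, limma adjusted p = 3.49e-06) and fell by 0.51 with the inhibitor relative to kainic acid (SE 0.0385, limma adjusted p = 2.68e-06). Mice given both treatments and mice given SL327 alone all lay just below the vehicle range, with differences of -0.05 (95% interval -0.13 to 0.03) and -0.07 (95% interval -0.15 to 0.01) that did not pass limma's threshold.

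Tpm4 (probe set 6977139) lay above the array's median, taken over the deposited annotated probe sets, in 1 kainic acid mouse only. Of the 9 genes it is the 1 that the intensity filter of the methods removes when applied to the deposited values. It was at 7.19, 7.13 and 7.12 with SL327 before kainic acid, against 7.34, 7.43 and 7.60 with kainic acid. It was at 7.00, 7.12 and 7.14 with SL327 alone, against 7.06, 7.14 and 7.07 with vehicle and 7.08, 6.93, 7.15 and 7.05 in untreated mice. The 3 kainic acid arrays were above the 13 others, in which the groups overlapped. The difference between kainic acid and vehicle was 0.37 (SE 0.0689, limma adjusted p = 0.00329) and that between SL327 with kainic acid and kainic acid -0.31 (SE 0.0689, limma adjusted p = 0.0105). In a fit of only the groups compared the last call was lost (limma adjusted p = 0.0635).

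Actb and Actg1 code for the cytoplasmic actins, the monomers of the filaments themselves. Actb (probe set 6942854) was at 9.64, 9.01 and 9.84 with SL327 before kainic acid, against 9.59, 10.25 and 9.97 with kainic acid. It was at 9.18, 9.15 and 9.03 with SL327 alone, against 9.26, 9.28 and 9.09 with vehicle and 9.31, 9.26, 9.38 and 9.28 in untreated mice. Mice differed widely within both kainic acid groups: with SL327 and kainic acid, replicate 2 lay below every vehicle array while replicates 1 and 3 exceeded the lowest kainic acid array. Actb rose by 0.73 with kainic acid over vehicle (SE 0.178, limma adjusted p = 0.0151). This call was lost without vehicle replicate 3 (adjusted p = 0.0535), kainic acid replicate 2 (0.0785) or kainic acid replicate 3 (0.0517). The difference of SL327 with kainic acid from kainic acid was -0.44 (95% interval -0.83 to -0.06, limma unadjusted p = 0.0258, adjusted p = 0.123), and it passed without kainic acid replicate 1, at -0.62 (adjusted p = 0.0359). With replicate 2 of the mice given both treatments left out it was -0.20 (adjusted p = 0.421), and without kainic acid replicate 2 it was -0.29 (adjusted p = 0.409).

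Actg1 (probe set 6792755) was at 8.38, 7.74 and 8.30 with SL327 before kainic acid, against 8.10, 8.64 and 8.56 with kainic acid. It was at 7.85, 7.96 and 7.80 with SL327 alone, against 7.92, 7.72 and 7.86 with vehicle and 8.17, 7.86, 7.91 and 7.82 in untreated mice. The same mice were lowest as for Actb: replicate 1 was lowest of the kainic acid mice, and replicate 2 lowest of those given both treatments. The lowest kainic acid array was also below 1 untreated mouse. Actg1 rose by 0.60 with kainic acid over vehicle (SE 0.162, limma adjusted p = 0.0255), a call that was lost when any of the 3 vehicle mice (replicate 1, 0.0515; replicate 2, 0.0972; replicate 3, 0.0563), kainic acid replicate 2 (0.118) or kainic acid replicate 3 (0.0965) was left out. SL327 with kainic acid differed from kainic acid by -0.29 (95% interval -0.64 to 0.05, limma unadjusted p = 0.0914, adjusted p = 0.267), so that an effect of the inhibitor on Actg1 was not detectable with 3 mice per group. As a difference of means it was -0.46 when kainic acid replicate 1 was left out and -0.09 when replicate 2 of the mice given both treatments was left out, the ends of the range when each array of these groups was left out.

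Ccn1 codes for a secreted matrix protein that binds integrins and is known as an immediate early gene. Probe set 6910173 was at 8.39, 8.01 and 8.31 with SL327 before kainic acid, against 8.21, 9.92 and 9.60 with kainic acid. It was at 7.54, 8.06 and 8.11 with SL327 alone, against 7.52, 7.24 and 7.46 with vehicle and 7.51, 7.31, 7.35 and 7.40 in untreated mice. Kainic acid replicate 1 was far below the other two and within the range of mice given both treatments, and all mice given SL327, with or without kainic acid, were above all vehicle treated mice. The difference between kainic acid and vehicle was the largest of the 9 genes at 1.84 (SE 0.311, limma adjusted p = 0.0017), and the residual SD of Ccn1 was also the largest, 0.426, at percentile 99.1 of all probe sets.
Relative to kainic acid, Ccn1 fell by 1.00 with the inhibitor (SE 0.311, limma adjusted p = 0.0497). This call was at the edge of the threshold and was lost in 20 of the 24 alternatives that applied to it, with adjusted p between 0.00011 and 0.217. Leaving out any single array other than kainic acid replicate 1 ended it. Without kainic acid replicate 1 the difference was -1.52, and without replicate 2 it was -0.67 (adjusted p = 0.217). Mice given both treatments were 0.83 above vehicle (95% interval 0.17 to 1.50, limma unadjusted p = 0.0181, adjusted p = 0.306), which passed without kainic acid replicate 1 (adjusted p = 0.0315).

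Ccn2 codes for a secreted protein known for inducing matrix deposition. Its level (probe set 6766623) was 8.49, 8.42 and 8.09 with SL327 before kainic acid, against 8.22, 9.00 and 9.10 with kainic acid. It was 8.42, 8.47 and 8.78 with SL327 alone, against 7.59, 7.88 and 7.90 with vehicle and 8.21, 8.20, 7.93 and 8.32 in untreated mice. Every mouse given kainic acid, SL327 or both lay above every vehicle treated mouse, kainic acid replicate 1 was the lowest of its group, and all 4 untreated mice lay above the vehicle range as well. Ccn2 rose by 0.98 with kainic acid over vehicle (SE 0.195, limma adjusted p = 0.00477). With untreated mice as the control this difference was 0.60 (adjusted p = 0.0283). SL327 with kainic acid differed from kainic acid by -0.44 (95% interval -0.85 to -0.02, limma unadjusted p = 0.0421, adjusted p = 0.167), and this passed without kainic acid replicate 1, at -0.71 (adjusted p = 0.00772). Without kainic acid replicate 3 it was -0.27 (adjusted p = 0.486).

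**Figure D3:**
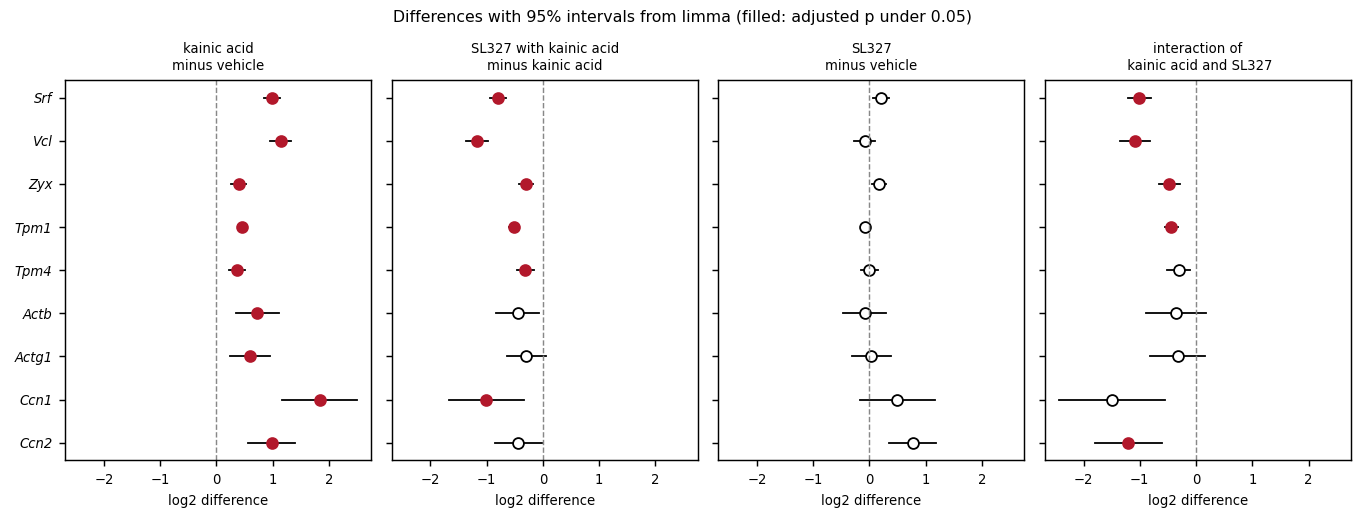
Log2 differences of the 9 genes in 4 comparisons with 95% intervals from limma, filled where the adjusted p is under 0.05, and a dashed line at 0. All 9 genes are filled in kainic acid minus vehicle, 6 in SL327 with kainic acid minus kainic acid, 0 in SL327 minus vehicle, and 5 in the interaction.

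SL327 alone was compared with vehicle to ask what the inhibitor does without seizures. None of the 9 genes passed limma's adjusted threshold, and 2.57% of all annotated probe sets were called higher. At an unadjusted p of 0.05, 3 of the 9 were higher (Srf, Zyx and Ccn2), against 13.3% of all probe sets. The median difference of the 9 genes was 0.03, against 0.02 over all probe sets. For 4 genes (Srf, Zyx, Ccn1 and Ccn2) all arrays of SL327 alone lay above all vehicle arrays, against 19.6% of all probe sets, and for Tpm1 they lay below. Ccn2 came closest with a difference of 0.77 (SE 0.195, limma adjusted p = 0.0502), and it passed in 6 of 26 alternatives, with kainic acid replicate 1 (0.0184) or 3 (0.0455) left out among them. Against untreated in place of vehicle mice the difference was 0.39 for Ccn2, 0.13 for Srf and 0.05 for Zyx. Markers of the choroid plexus were also higher on average: their mean level over 6 genes, relative to the vehicle mean, was between 0.25 and 0.92 with SL327 alone, against -0.25 and 0.44 with vehicle and -0.46 and 1.44 in untreated mice, with 0 of 6 called. The mean over 4 measured of 6 fibroblast markers was between 0.00 and 0.30 with SL327 alone, against -0.09 and 0.07 with vehicle, with 0 called. It was between -0.09 and 0.22 in untreated mice and between 0.05 and 0.19 with kainic acid, so that these ranges overlapped that of SL327 alone. The part of these markers in the level of Ccn2 was not tested.

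Mice given SL327 with kainic acid were also set against vehicle treated mice and against mice given SL327 alone. Against vehicle, 0 of the 9 genes passed limma's adjusted threshold, while 0.383% of all probe sets were called higher. At an unadjusted p of 0.05, 3 of the 9 were higher (Srf, Ccn1 and Ccn2), against 7.03% of all probe sets. The difference of Ccn2 was 0.55 (adjusted p = 0.281), and with untreated mice as the control it was 0.17 (adjusted p = 0.71). Only Ccn1 and Ccn2 had all arrays above vehicle, against 11.5% of all probe sets, and Tpm1 had all below. The median difference of the 9 genes was 0.18, against 0.01 over all probe sets. Against SL327 alone, 0 of 9 passed limma's adjusted or unadjusted threshold, but here 0% of all probe sets passed the adjusted one as well (1381 at an unadjusted p of 0.05, smallest adjusted p = 0.0561). The 95% intervals of this difference were -0.16 to 0.12 for Srf, -0.14 to 0.24 for Vcl and -0.06 to 0.10 for Tpm1, and wider for Ccn1 (-0.33 to 1.00) and Actb (-0.01 to 0.76).

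Whether the response to kainic acid itself differed with the inhibitor was tested as an interaction, the effect of kainic acid in mice pretreated with SL327 minus its effect in mice without the inhibitor, relative to SL327 alone and to vehicle. The response was smaller with SL327 for 5 of the 9 genes at limma's adjusted threshold (Srf, Vcl, Tpm1, Zyx and Ccn2), against 1.9% of all probe sets, and 7 had an unadjusted p under 0.05, against 8.02% of all probe sets lower at that threshold. The interaction was -1.01 for Srf (SE 0.0929, adjusted p = 5.21e-05), -1.09 for Vcl (SE 0.125, adjusted p = 0.000281) and -0.44 for Tpm1 (SE 0.0544, adjusted p = 0.000467). In these 3 genes it had about the size of the response to kainic acid. For Zyx it was -0.48 (adjusted p = 0.00777). For Ccn2 it was -1.20 (adjusted p = 0.0333), with SL327 with kainic acid minus SL327 alone at -0.22 and kainic acid minus vehicle at 0.98, and the call was lost in 13 of 26 alternatives. Among these were the fits without vehicle replicate 1 (adjusted p = 0.0913) or 2 (0.0603), kainic acid replicate 2 (0.0893) or 3 (0.0781), SL327 with kainic acid replicate 2 (0.0535) or 3 (0.086) and SL327 replicate 2 (0.0571) or 3 (0.0907). For Ccn1 it was -1.50 (95% interval -2.44 to -0.56, adjusted p = 0.0879), and without kainic acid replicate 1 it was -2.01 and passed (adjusted p = 0.000319). Actb (-0.36, 95% interval -0.90 to 0.18) and Actg1 (-0.33, 95% interval -0.82 to 0.16) had intervals that include 0, and Tpm4 did not pass (-0.31, adjusted p = 0.108).

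Injection by itself was examined in vehicle treated against untreated mice. Again 0 of 9 genes passed limma's adjusted threshold and so did 0% of all probe sets (843 at an unadjusted p of 0.05, smallest adjusted p = 0.719). At an unadjusted p of 0.05 Zyx alone was lower in vehicle treated mice, with a difference of -0.13 (unadjusted p = 0.0383, adjusted p = 0.834). Ccn2 differed by -0.38 (95% interval -0.77 to 0.01, unadjusted p = 0.0577). The other 7 genes differed by between -0.10 and 0.03.

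**Figure D4:**
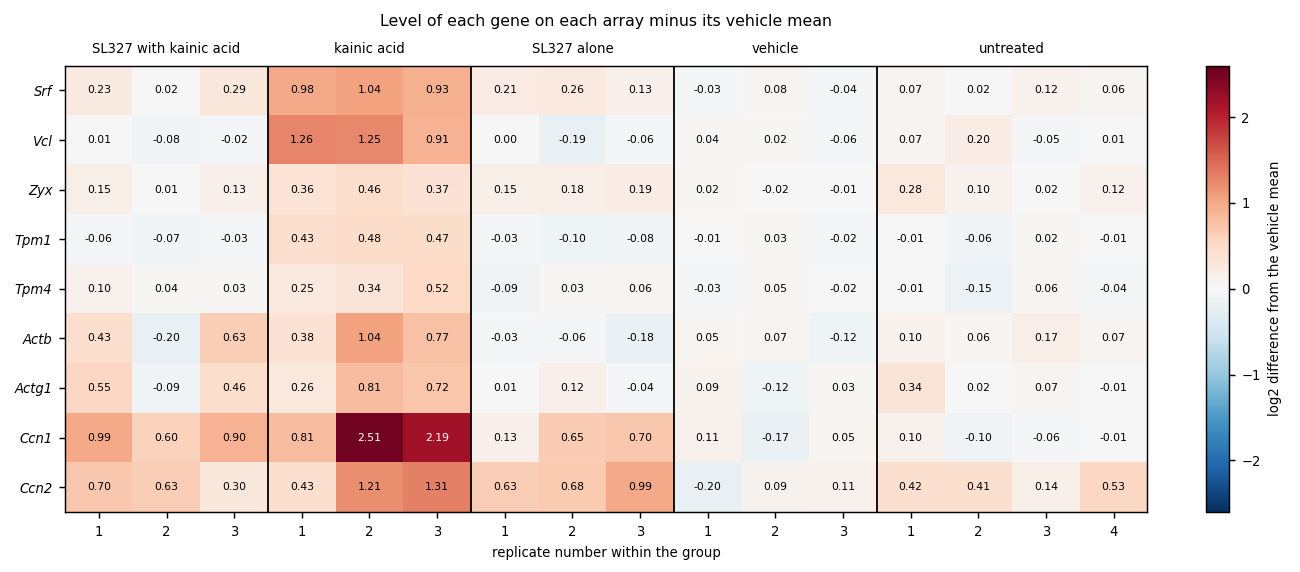
Level of each of the 9 genes on each of 16 arrays minus the gene's vehicle mean, as a log2 difference written in each cell and coloured from blue (lower) to red (higher), with arrays in columns by group and replicate number. Kainic acid replicate 1 is lower than replicates 2 and 3 for Actb, Actg1, Ccn1 and Ccn2, and is not the lowest for Srf and Vcl.

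The genes also differed in how the individual mice responded. Over the 9 genes the median level relative to the vehicle mean was 0.23, 0.01 and 0.29 in the 3 mice given SL327 with kainic acid, against 0.43, 1.04 and 0.77 in the 3 mice given kainic acid. All 9 genes exceeded the vehicle range in each kainic acid mouse, while 7, 2 and 6 did so in the mice given both treatments. Kainic acid replicate 1 had the lowest level of its group for Actb, Actg1, Ccn1, Ccn2, Tpm1, Tpm4 and Zyx, whereas replicate 3 was lowest for Srf and Vcl. After the group means were taken out, deviations of Actb and Actg1 were correlated at r = 0.82 over the 16 arrays, those of Ccn1 and Ccn2 at 0.72 and those of Srf and Actb at 0.78, while those of Vcl and Tpm4 ran opposite (-0.79). These correlations describe arrays that share a normalization and are given without a test.

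Across all 16 arrays the probe sets most like Srf were those of Egr3 (Pearson's r = 0.988), Usp36 (0.987), Gadd45b (0.976), Fbxo33 (0.975) and Noct (0.973), among 13180 genes. Of the members Tpm1 (0.93) and Vcl (0.92) were closest to Srf, and Ccn2 (0.63) the least close of the 8. Actb was most like Sap18 (0.947), Kcnj2 (0.945), Tiparp (0.943), Siah2 (0.941) and Btg2 (0.941), and Actg1 stood at rank 11 (0.92). Ccn2 was most like Rusc1 (0.884), Pmepa1 (0.872), Rai14 (0.870), Cltb (0.865) and Opa3 (0.864), with Ccn1 at rank 22 (0.79). The values rest on groups that differ, so that any genes which respond to kainic acid correlate, and they are given as a description.

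Other genes of the pathway were followed in lists. Of 6 measured SRF cofactors, 2 rose with kainic acid over vehicle and 1 fell, against 759 and 1296 of all 15417 annotated probe sets. Elk4 rose by 0.22 (limma adjusted p = 0.0148) and Fhl2, a LIM protein that binds SRF, by 0.32 (adjusted p = 0.0304). Elk1 fell by 0.29 (adjusted p = 0.0185) and was 0.32 higher with SL327 and kainic acid than with kainic acid (adjusted p = 0.0128). Mrtfa (0.04), Mrtfb (-0.18) and Elk3 (-0.02) did not pass.

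Early response genes with SRF sites, transcription factors for the most part, changed in the same direction as Srf. All 9 were higher with kainic acid than with vehicle by limma's adjusted threshold, against 4.92% of all probe sets, with a median difference of 1.29. When the inhibitor preceded kainic acid 7 were lower than with kainic acid, against 4.09% of all probe sets. The largest rises were those of Fosb (3.35), Fos (2.98), Nr4a1 (2.16) and Egr3 (2.10). With SL327 and kainic acid relative to kainic acid, Egr3 fell by 1.71 (adjusted p = 9.8e-07), Fosb fell by 1.87 (adjusted p = 0.0117) and Nr4a1 fell by 1.06 (adjusted p = 0.0197), whereas Fos differed by -1.38 and did not pass (adjusted p = 0.0733). Relative to vehicle, 0 of the 9 passed limma's adjusted threshold in mice given both treatments, against 0.383% of all probe sets called higher. At an unadjusted p of 0.05, 8 were higher, against 7.03% of all probe sets, and the median difference was 0.47. The differences were 1.60 for Fos (adjusted p = 0.174), 1.48 for Fosb (adjusted p = 0.16), 1.10 for Nr4a1 (adjusted p = 0.0936) and 0.39 for Egr3 (adjusted p = 0.174).

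Of 17 measured further cytoskeletal SRF targets, 6 rose with kainic acid over vehicle, against 4.92% of all probe sets, and 0 fell, with a median difference of 0.18. With SL327 and kainic acid 6 were lower than with kainic acid, against 4.09% of all probe sets. Tgfb1i1, which codes for a focal adhesion adaptor, rose by 0.56 (limma adjusted p = 0.000109) and fell by 0.54 with the inhibitor relative to kainic acid (adjusted p = 0.00024). Tpm3, a further tropomyosin, rose by 0.34, the non-muscle myosin Myh9 by 0.33 and Wdr1, a cofactor of cofilin in filament disassembly, by 0.30. Myh9 (-0.36) and Wdr1 (-0.26) were lower with the inhibitor, and Tpm3 differed by -0.22 (adjusted p = 0.0873).

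Of 20 measured regulators of actin filaments 2 rose with kainic acid over vehicle, against 4.92% of all annotated probe sets, and the median difference was 0.02. These were Cfl1 (cofilin, which severs filaments) by 0.56 (limma adjusted p = 0.0112) and Arpc5, a subunit of the Arp2/3 complex, by 0.27 (adjusted p = 0.00545). Wasf1, which activates the Arp2/3 complex, was 0.34 higher with SL327 and kainic acid than with kainic acid (adjusted p = 0.0226), and Pfn2, a profilin, was 0.30 higher with SL327 alone than with vehicle (adjusted p = 0.0267). These last 2 genes were named after their values were seen. Of 10 measured genes of the CCN family and the YAP pathway 1 rose with kainic acid over vehicle, against the same 4.92% of all probe sets. This was Lats2, a kinase that restrains YAP, which rose by 0.32 (adjusted p = 0.00901). It fell by 0.31 with the inhibitor relative to kainic acid (adjusted p = 0.0121). The median of that list was -0.01 with kainic acid relative to vehicle.

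**Figure D5:**
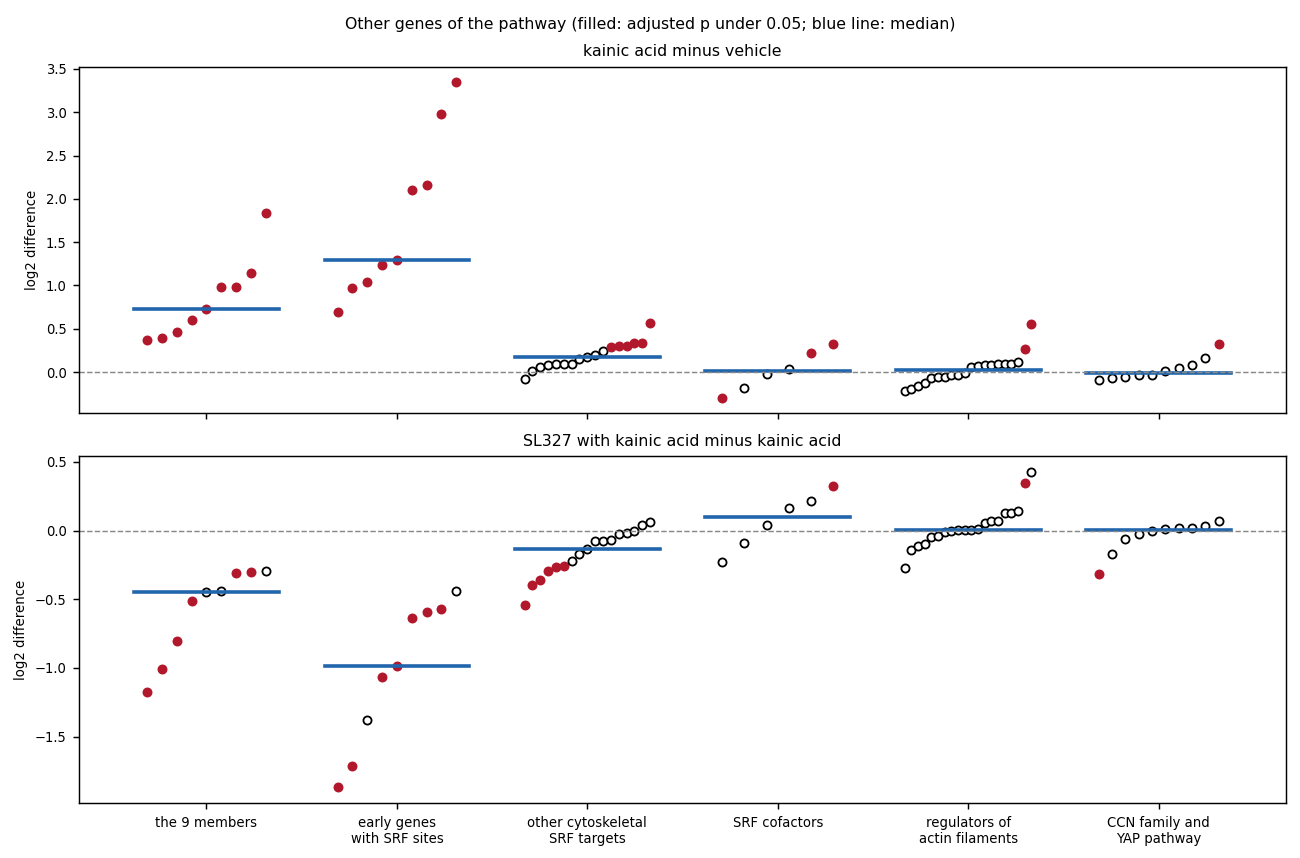
Log2 differences of single genes (points, filled where limma's adjusted p is under 0.05) in the 9 members and in 5 lists of other genes of the pathway, for kainic acid minus vehicle (top) and SL327 with kainic acid minus kainic acid (bottom), with a blue line at each median. The 9 members (median 0.73) and the 9 early response genes (median 1.29) lie above 0 with kainic acid, while the medians of the cofactors, the regulators of actin filaments and the CCN and YAP list are near 0.

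Several of these genes are abundant in cells of the vessel wall, and markers of other cell types were therefore measured. Of 10 markers of vascular smooth muscle and pericytes, 0 were called in any comparison. Of these markers 3 (Acta2, Tagln and Cnn1) are also in the list of further cytoskeletal SRF targets, and others may be SRF targets as well. The mean level of the 10 markers relative to the vehicle mean was between -0.03 and 0.12 in mice given SL327 with kainic acid, between 0.08 and 0.11 with kainic acid, between 0.03 and 0.15 with SL327 alone, between -0.05 and 0.04 with vehicle and between -0.02 and 0.10 in untreated mice. The kainic acid and vehicle mice thus did not overlap, with a mean shift of 0.09. Single markers differed in direction: the mean of Vtn was 8.40 with kainic acid against 8.09 with vehicle, and that of Pdgfrb 7.80 against 7.93. The mean over 6 neuronal markers was between -0.16 and -0.12 with kainic acid, against -0.08 and 0.04 with vehicle and -0.04 and 0.11 with both treatments. Of the 6, 1 was called higher with SL327 and kainic acid than with kainic acid, and 1 in the interaction. Prox1, a marker of dentate granule cells, fell by 0.67 with kainic acid over vehicle (limma adjusted p = 0.0147). Its mean was 10.80 with SL327 before kainic acid, against 10.17 with kainic acid, 10.84 with vehicle and 10.46 with SL327 alone. The other 5 markers differed between kainic acid and vehicle by between -0.11 (Neurod6) and 0.10 (Snap25). Their mean was between -0.08 and 0.03 with kainic acid, against -0.04 and 0.02 with vehicle and 0.02 and 0.08 with both treatments. None of the markers of endothelium (4 of 6 measured), fibroblasts (4 of 6), astrocytes (4 of 5) or microglia (5 of 5) was called. The part of these shifts in the levels of the 9 genes was not tested.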

How the data were processed

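RNA of hippocampi was hybridized to Affymetrix exon arrays, and the authors processed the raw files with oligo, using its robust multi-array average (RMA), and its version is not given in the sources used here. The deposited values are log2 intensities of probe sets, used here as deposited. The third-highest value of a probe set was never below 6.42, so that low intensities may have been removed before deposit. Of 20372 probe sets, 14704 were annotated with 1 gene, 713 with several and 4955 with none, and 14476 of the first matched RefSeq gene IDs. Each gene was represented by its single-gene probe set with the highest mean over the 16 arrays, without a filter on intensity, and each of the 9 measured members had 1 such probe set. A probe set shared by Actb and another gene was not used.

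Groups were taken from the sample labels. All 15417 annotated probe sets were fitted with limma 3.58.1 (R 4.3.3), a mean for each of 5 groups (11 residual and 2.89 prior degrees of freedom), with 7 contrasts. Two-sided tests were used, with Benjamini-Hochberg adjustment over all annotated probe sets and a threshold of 0.05. The methods keep annotated probe sets that lie above the median in 3 or more arrays. As an alternative this was run on the deposited values, with each array's median over the annotated probe sets, and 8520 were kept. If low intensities were removed before deposit, this cut is stricter than that of the methods. The fit was tested on simulated data. Members, lists and the rule for naming genes (all members and cofactors, up to 4 called genes per other list, 5 most similar genes) were chosen with earlier results of these data known. Alternatives were the filter of the methods, probe sets without a gene name included, 1 probe set per gene, median centring, quantile normalization, robust moderation with trend, a fit of only the groups compared, other controls (untreated, or pooled with vehicle), a replicate block, and each of the 16 arrays left out in turn. The number of mice limits the precision.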

Additional observations from a re-analysis of the deposited data

Results flagged for a closer look

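The response to kainic acid was smaller with SL327 in 5 of the 9 genes by limma's interaction test, against 1.9% of all probe sets called lower. The value is given as the response in the presence of the inhibitor minus that in its absence. It was -1.01 for Srf, -1.09 for Vcl, -0.44 for Tpm1, -0.48 for Zyx and -1.20 for Ccn2 on the log2 scale. The value of Ccn2 was the only one of the 5 whose call was lost in an alternative. Kainic acid and vehicle arrays enter both this test and the comparison of kainic acid with vehicle.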

How the results depend on the processing

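Recomputed were only the 31 values of single genes with an unadjusted limma p under 0.05 in the main fit, a choice that favours a stable direction. None of the recomputed values changed direction. Of 785 recomputed values of single genes, 730 kept their side of the threshold, 43 lost it and 12 gained it. The count of genes called in SL327 alone against vehicle was 1 in place of 0, the gene being Ccn2, with the intensity filter of the methods applied to the deposited values (adjusted p = 0.0305), with 1 probe set per gene (0.0405), with robust moderation by trend (0.0494) and in a fit of the groups compared only (0.0451). With each array left out in turn it was between 0 and 1. The count for SL327 with kainic acid against vehicle was likewise between 0 and 1, the gene being Ccn1 without kainic acid replicate 1. That for kainic acid against vehicle was between 7 and 9, for SL327 with kainic acid against kainic acid between 5 and 8 (and 4 in a fit of the groups compared only), for sensitivity by the criterion of the methods between 6 and 9, and for the interaction between 4 and 6. Why calls changed was not tested. No sign was seen that replicate numbers pair the mice. In 30 pairs with the same number the deviations from the group means had a mean correlation of -0.0139, and 4 were over 0.1. With another number the mean was 0.00599. Whether mice with the same number shared a day or a batch is not known. With the replicate number as a block, 8 genes were called for kainic acid (Actg1 lost, adjusted p = 0.0508), 5 for the inhibitor (Ccn1 lost, 0.0767) and 4 for the interaction (Ccn2 lost, 0.0619). Averaging the probe sets of a gene gave no further value, since each gene had 1, and Tpm4 is not in the fit with the filter of the methods. With 3 mice per group, the wide spread of Ccn1, Ccn2, Actb and Actg1 leaves small differences undetectable.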
